A study of Ambystoma californiense with 99 samples.

Results

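Superoxide and peroxide scavenging enzymes were followed through brain and leg muscle of heated and unheated tiger salamanders. The set holds the 5 features whose name in the count tables is sod1, SOD3, CAT, PRDX5 or prdx4.S, of 23251 features in all, and each name was found once in both tables. They carry the identifiers AMEXTC_0340000062778 (sod1), AMEXTC_0340000042675 (SOD3), AMEXTC_0340000061860 (CAT), AMEXTC_0340000063717 (PRDX5) and AMEXTC_0340000135847 (prdx4.S). All 5 passed the filter on low counts in both tissues. A further feature named catalase, AMEXTC_0340000059841, is not a member, and its values are given beside those of CAT.

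The animals were California tiger salamanders (genotype tag CTS, Ambystoma californiense), animals tagged BTS, the barred tiger salamander that was introduced into their range, and F1 hybrids of the pair. Heated animals were warmed acutely until, once laid on the back, they had not righted themselves for 30 seconds, and control animals were not. Whole brain gave 5 control and 5 heated CTS libraries, 5 and 6 of BTS, and 13 and 10 of F1, while leg muscle gave 5 and 5, 5 and 6, and 13 and 12. In either tissue 4 of 5 control and 2 of 5 heated CTS libraries were from females, and 2 of 5 and 5 of 6 in BTS. In F1 these were 10 of 13 and 7 of 10 in brain, and 11 of 13 and 8 of 12 in muscle. The fits hold a term for sex, while the single values, means and ranges given below are not adjusted for it. Neither the ages of the animals nor the number of families or source populations stand in the labels. Per tissue 3 BTSbc libraries and 1 CTSbc library, from backcross animals, entered no comparison. Each library was made from 1 animal, so the spread within a group is between animals, and brain and muscle of 42 animals could be matched.

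Superoxide is a by-product of respiration and of several oxidases. Superoxide dismutases turn it into hydrogen peroxide: in mammals SOD1 does so in the cytosol and SOD3 outside the cell. Hydrogen peroxide is then broken down by catalase, the product of CAT, which lies mostly in peroxisomes, and by peroxiredoxins, of which PRDX5 acts in mitochondria, peroxisomes and cytosol and PRDX4 in the endoplasmic reticulum, where disulfide bonds are made. These roles are background from mammals and were not measured here.

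Brain libraries held 3213005 to 13506066 counted reads and muscle libraries 1232774 to 20068304, apart from 1 shallow library per tissue (brain of F1 animal 16 with 5418 reads, muscle of F1 animal 11 with 66186), which stayed in the fits and is left out of levels given here. The 10 neuron marker features summed to between 5200 and 16745 CPM (reads of a feature per 1000000 counted reads) in brain and to between 3.36 and 225 in muscle. The 21 skeletal muscle marker features summed to between 129198 and 230068 CPM in muscle and to between 674 and 2923 in brain, the highest of these in the heated CTS brain of animal 7. In muscle the epidermis markers reached 1003 CPM in control CTS animal 63, 513 in control BTS animal 68 and 618 in control F1 animal 25, against group medians of 113 to 276, and the neuron markers reached 225 CPM in control CTS animal 66. Calls of the members that change without these libraries are given both ways. As a check of the heat labels, hsp90aa1.1, an inducible chaperone gene, was higher in heated animals by 2.37 on the log2 scale in brain (adjusted p = 0.00126) and by 5.95 in muscle (adjusted p = 1.89e-05). The check gene hspb6 was higher in brain by 3.48 (adjusted p = 0.000738), and was not called in muscle (0.12, adjusted p = 0.899). For DNAJB1, 1 feature was called higher in both tissues (1.53 and 2.74), and another in neither (adjusted p = 0.371 and 0.165). These values average the 3 genotypes. In CTS alone and in BTS alone no check feature was called in either tissue. Tests are edgeR's quasi-likelihood tests, with p-values adjusted by Benjamini-Hochberg over all features.

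Levels are CPM scaled by TMM within a tissue. Transcript lengths were not used, so levels of different genes were not ranked against each other. Across the brain libraries PRDX5 was carried by 824 to 4990 reads per library, sod1 by 184 to 1044, CAT by 62 to 1546, prdx4.S by 147 to 1051 and SOD3 by 21 to 269. In muscle PRDX5 had 194 to 4084 reads, CAT 132 to 2593, sod1 51 to 1320 and prdx4.S 27 to 388. SOD3 had only 0 to 121 reads in muscle, with a median of 30, so that its level there is the least precise of the 10 measured. The 1 muscle library without a SOD3 read, of heated F1 animal 67, allows a level of up to 2.43 CPM, which covers counting error only.

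**Figure D1:**
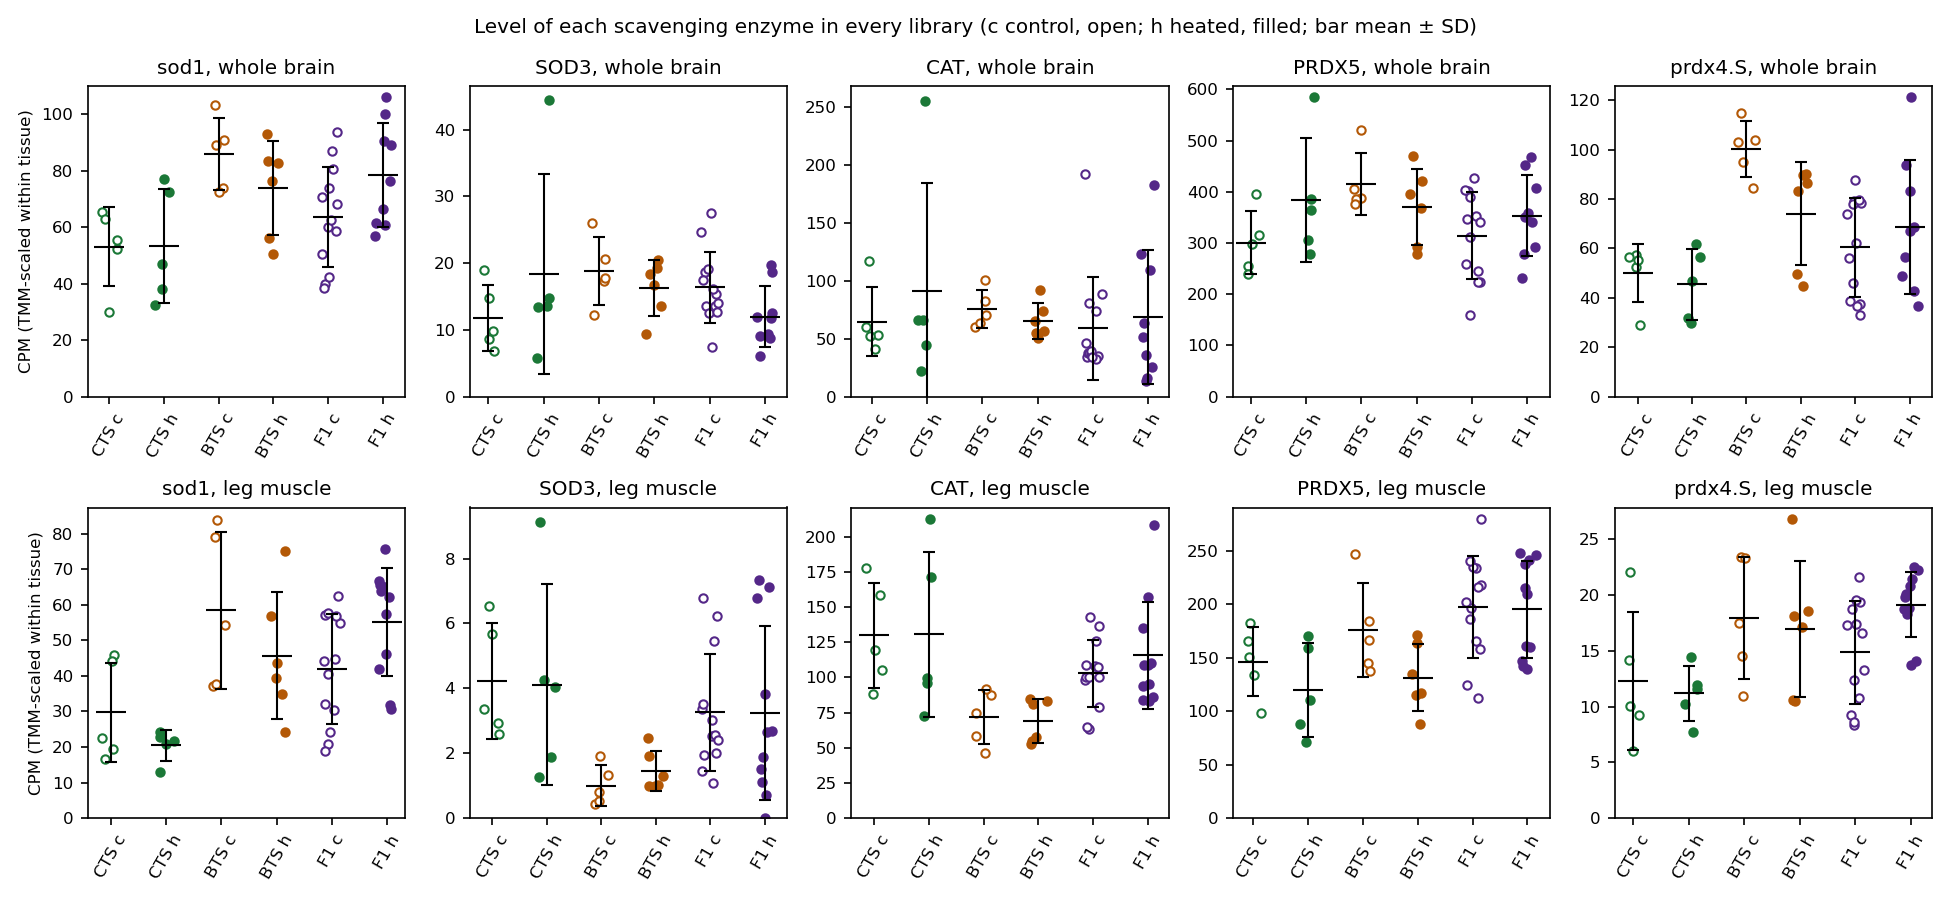
Level of each of the 5 scavenging enzymes (CPM, TMM-scaled within a tissue, linear axes from 0) in each library of brain (top) and leg muscle (bottom), open points for control and filled points for heated animals, with the group mean ± SD. Heated and control animals of a genotype overlap in all panels, while in muscle the BTS libraries lie low for SOD3 and CAT and the CTS libraries lie low for sod1.

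The first comparison asked whether acute heat changed the members. In brain none of the 5 passed the test. Averaged over the 3 genotypes, with equal weight, the heated minus control difference on the log2 scale was 0.02 (SE 0.13) for sod1, -0.04 (SE 0.18) for SOD3, 0.15 (SE 0.29) for CAT, 0.10 (SE 0.13) for PRDX5 and -0.14 (SE 0.15) for prdx4.S. Fold changes outside 0.848 to 1.21 for sod1, and outside 0.894 to 1.29 for PRDX5, lie beyond their 95% intervals, while for CAT the interval still runs from 0.744 to 1.66. The sign of the CAT value rests on the heated CTS brain of animal 7: without it the value was -0.11, and in CTS alone it went from 0.42 to -0.35. The edgeR test called 0 of the 5 members, 0 of them had an unadjusted p under 0.05, and DESeq2 called 0, against 0.0968% of all 15496 features called in the same comparison.

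Within single genotypes the brain values lay further from 0, from -0.48 for SOD3 in F1 to 0.45 for SOD3 in CTS, and none passed the test. Without the brain of animal 7 the CTS value of SOD3 was -0.075. The test called 0 of 5 members in CTS, where it called 0% of all features (542 features had an unadjusted p under 0.05 and DESeq2 called 6). In BTS it likewise called 0 of 5 members and 0% of features (835 at an unadjusted p under 0.05, 11 called by DESeq2). In F1 it called 0 of 5 members, and 0.0516% of features. No member had an unadjusted p under 0.05 by edgeR in any of these, and DESeq2 called none of the members. SOD3 in F1 brain came nearest: control libraries had between 7.44 and 27.5 CPM with a median of 15.4, and heated ones between 6.11 and 19.7 with a median of 11.8. The ranges overlapped, 2 of 9 heated libraries lay above the control median, and the difference of -0.48 (SE 0.24) had an adjusted p of 0.884 by edgeR. The heat response did not differ detectably between genotypes for any member (0 of 5, 0% of features by edgeR's F test, where 692 features had an unadjusted p under 0.05 and DESeq2 called 4).

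In muscle the members also passed no test of heat. Averaged over genotypes, the log2 difference was -0.18 (SE 0.17) for sod1, 0.20 (SE 0.29) for SOD3, 0.02 (SE 0.14) for CAT, -0.26 (SE 0.13) for PRDX5 and 0.05 (SE 0.14) for prdx4.S. PRDX5 was the only one of the 5 with an unadjusted p under 0.05 (p = 0.0481), and after adjustment by edgeR it was 0.437. The share of features called was 0.757%, and both edgeR and DESeq2 called 0 of the 5 members.

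The PRDX5 values behind that difference lay as follows. In BTS muscle the control libraries had 138, 145, 166, 184 and 247 CPM, and the 6 heated ones ran from 87.7 to 171 with a median of 126. In CTS muscle the controls had 97.9, 134, 150, 166 and 182 CPM and the heated ones 71.2, 87.6, 111, 159 and 170. The F1 libraries ran from 112 to 280 CPM in controls and from 140 to 248 when heated. Heated libraries reached lower than controls in BTS, where 4 of 6 lay below every control, and in CTS, where 2 of 5 did, whereas no heated F1 library lay below the F1 controls. Whether PRDX5 responded differently between genotypes was tested, with an adjusted p of 0.748.

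For sod1 in muscle the heat differences of the genotypes went apart without passing the test. Its log2 difference was -0.61 (SE 0.34) in CTS, -0.27 (SE 0.32) in BTS and 0.33 (SE 0.21) in F1. The test of a difference between the 3 gave an unadjusted p of 0.0462 and an adjusted p of 0.396 by edgeR. In F1 muscle, prdx4.S showed a similar value of 0.35 (SE 0.18), with an adjusted p of 0.484. Across single genotypes in muscle 0 of 5 members were called in each, with 0.39% of features called in CTS, 0.0159% in BTS and 0.119% in F1, and 0.0478% in the test between genotypes. DESeq2 called none of the members in these comparisons either.

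**Figure D2:**
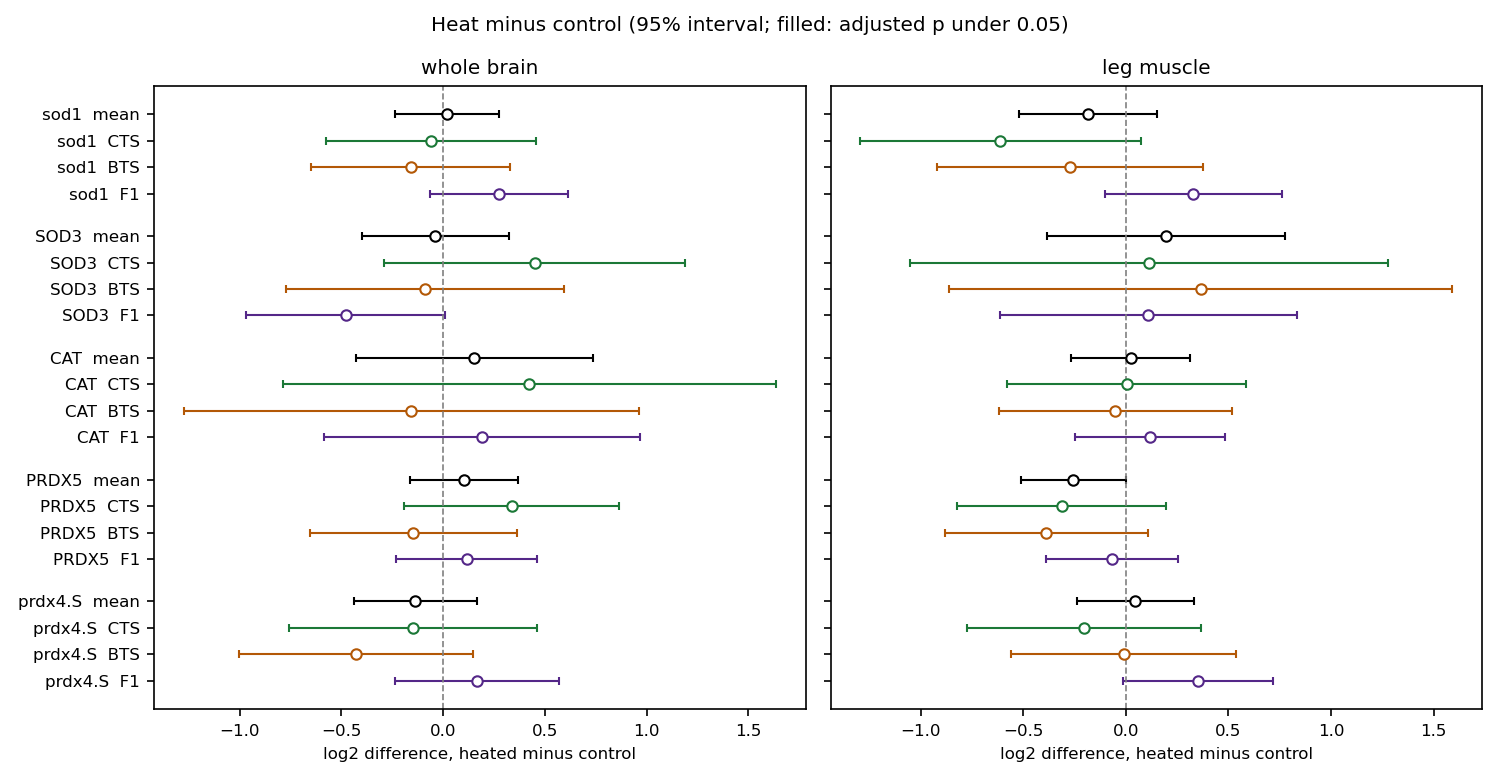
Heated minus control difference (log2, with its 95% interval) of the 5 scavenging enzymes in brain (left) and leg muscle (right), for the mean of the 3 genotypes and for each genotype, with filled symbols reserved for an adjusted p under 0.05. No symbol is filled, and the muscle values of sod1 lie between -0.61 in CTS and 0.33 in F1.

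The heat response of the 5 members did not differ detectably between tissues either. In a joint fit of both tissues, 0 of 5 were called, with 0.221% of features called and 0 members called by DESeq2. PRDX5 had the largest difference of the 5 (0.36, SE 0.17, unadjusted p = 0.0344, adjusted p = 0.582 by edgeR), being the only member with an unadjusted p under 0.05 there.

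The genotype comparison gave the clearest results. In brain, sod1 and prdx4.S were higher in BTS than in CTS, control and heated animals counting equally, and the other 3 members did not pass the test. These are 2 of 5 members, beside 35.2% of all features called in this comparison. How many of all features keep BTS and CTS libraries apart without overlap was not counted, in brain or in muscle. BTS and CTS reads were counted against a single set of gene models, and how well the reads of each species match them was not tested, so a difference between genotypes in level and one in matching cannot be told apart. The same holds for F1 against either parent.

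Brain sod1 had 29.9, 52.3, 55.5, 62.8 and 65.2 CPM in the CTS controls and 32.3, 38.1, 46.9, 72.6 and 76.9 in the heated CTS animals. In BTS it had 72.5, 73.9, 89.2, 90.9 and 103 CPM in controls, and 50.6, 56.3, 76.4, 82.8, 83.3 and 92.9 in heated animals. All control BTS libraries lay above all control CTS libraries, and the heated ones overlapped. The log2 difference was 0.59 (SE 0.17, adjusted p = 0.00592 by edgeR), a fold of 1.51 with a 95% interval of 1.18 to 1.92. In controls alone it was 0.64 with an adjusted p of 0.0682 and in heated animals alone 0.54 with an adjusted p of 0.127, and over the alternatives run the adjusted p ran from 0.000577 to that value.

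For prdx4.S the gap in brain was wider. The CTS controls had 29, 52.5, 55.2, 56.5 and 57.2 CPM and the BTS controls 84.4, 95.2, 103, 104 and 115. Heated CTS brains had 29.8, 31.7, 46.8, 56.7 and 62 CPM, and heated BTS brains 45, 49.8, 83.3, 86.6, 89.6 and 90. The controls did not overlap, and 9 of 11 BTS libraries lay above the highest of the 10 CTS libraries. The log2 difference was 0.86 (SE 0.20, adjusted p = 0.000862 by edgeR), a fold of 1.81 (95% interval 1.36 to 2.41). Heated animals alone gave 0.72 with an adjusted p of 0.0812, the highest over the alternatives run, whose lowest was 1.54e-05.

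Brain SOD3, CAT and PRDX5 showed no detectable difference between the parents. The log2 values were 0.26 (SE 0.24), -0.11 (SE 0.38) and 0.21 (SE 0.18). For SOD3 this rests on the heated CTS brain of animal 7. That library had 44.5 CPM of SOD3 where the other 4 of its group had 5.74 to 14.8. Without it the SOD3 difference was 0.55 with an adjusted p of 0.0443. Without that library the CAT difference turned to 0.32 and still did not pass the test, with an adjusted p of 0.511. The same library carried the highest skeletal muscle and epidermis marker sums of all brain libraries, and their part in the result was not tested.

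In muscle, BTS and CTS differed in 4 of the 5 members, in both directions, beside 46.6% of all features. sod1 and prdx4.S were higher in BTS, as in brain, while SOD3 and CAT were lower. PRDX5 did not pass the test.

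Muscle sod1 had 16.7, 19.5, 22.5, 44.1 and 45.8 CPM in the CTS controls and 13, 20.9, 21.7, 22.7 and 24.2 in heated CTS animals. In BTS it had 37.2, 37.9, 54.3, 79.1 and 83.9 CPM in controls, and 24.3, 35, 39.5, 43.7, 56.8 and 75.3 in heated animals. All 11 BTS libraries lay above the CTS median. The heated groups were barely apart, with up to 24.2 CPM in CTS and from 24.3 CPM in BTS. The log2 difference was 1.09 (SE 0.23, adjusted p = 0.000157 by edgeR), a fold of 2.13 (95% interval 1.54 to 2.95), and over the alternatives run the value stayed between 0.89 and 1.26 with an adjusted p of at most 0.0333. prdx4.S followed with 0.59 (SE 0.19, adjusted p = 0.0106), from means of 11.7 ± 4.48 CPM (SD, n = 10) in CTS and 17.4 ± 5.53 CPM (SD, n = 11) in BTS. That call was lost in controls alone (0.50, adjusted p = 0.178), in heated animals alone (0.69, adjusted p = 0.0545) and without muscle libraries 63, 68, 25 and 66 (0.39, adjusted p = 0.133), over a range of adjusted p from 0.00192 to 0.178.

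SOD3, the secreted dismutase, showed the widest muscle difference of the 5 members. The CTS controls had 2.59, 2.93, 3.35, 5.68 and 6.55 CPM and the heated CTS animals 1.26, 1.89, 4.04, 4.26 and 9.12. The BTS controls had 0.421, 0.531, 0.794, 1.34 and 1.91 CPM, carried by 4 to 21 reads, and the heated BTS animals 0.975, 0.986, 1.02, 1.31, 1.92 and 2.47. Each BTS control lay below each CTS control, and the heated groups overlapped. SOD3 was lower in BTS by a log2 difference of -1.77 (SE 0.40, adjusted p = 0.000311 by edgeR), a fold of 0.294 (95% interval 0.169 to 0.513). The call held in all alternatives run, with an adjusted p of at most 0.0245.

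CAT was lower in BTS muscle too. The CTS controls had 88.5, 105, 119, 158 and 178 CPM and the heated CTS animals 72.8, 96.2, 99.8, 171 and 213. The BTS controls had 46.5, 58.2, 74.9, 87.3 and 92 CPM, and the heated BTS animals 52.4, 54.8, 57.6, 81.3, 82.9 and 85. No BTS library reached the CTS median, and the ranges met only between 72.8 and 92 CPM. The log2 difference was -0.89 (SE 0.20, adjusted p = 0.000256 by edgeR), a fold of 0.541 (95% interval 0.411 to 0.712), with an adjusted p of at most 0.0216 over the alternatives run. The feature named catalase went the other way, with 68 ± 12.8 CPM (SD, n = 10) in CTS and 84.5 ± 11.1 CPM (SD, n = 11) in BTS and a log2 difference of 0.32 (SE 0.12, adjusted p = 0.0331). Reads of both features together came to 198 ± 54.8 CPM in CTS (SD, n = 10) and 155 ± 20 CPM in BTS (SD, n = 11), so the ranges of the sum, 137 to 280 and 128 to 184, overlapped. The files do not say whether the 2 features are copies of a gene or pieces of 1 transcript, and how reads were divided between them was not tested.

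Some marker sums in muscle also differed between CTS and BTS in their medians. The 14 epidermis marker features had medians of 113 (control) and 120 CPM (heated) in CTS, against 276 and 231 in BTS, with 11 to 13 of them above 0 in a group. The 7 fibroblast marker features had medians of 435 and 488 CPM in CTS and of 259 and 255 in BTS, with 5 or 6 above 0. F1 muscle had medians of 152 (control) and 128 CPM (heated) for epidermis, and of 250 and 315 for fibroblasts. The 9 immune marker features had medians of 45.7 and 23.6 CPM in CTS, 59.1 and 81.1 in BTS, and 63 and 67.6 in F1. The neuron sum had group medians of 5.17 to 16.5 CPM in muscle. Its Spearman's rho over 45 libraries was -0.60 with sod1, -0.50 with prdx4.S, -0.43 with CAT, -0.34 with PRDX5 and -0.07 with SOD3. The part of these marker sums in the differences of sod1, SOD3, CAT and prdx4.S was not tested. In bulk tissue fewer cells of a type and less RNA per cell cannot be told apart. Without muscle libraries 63, 68, 25 and 66 the log2 difference was -1.70 for SOD3, -1.05 for CAT and 0.89 for sod1, each still called.

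The parental difference of SOD3 itself differed between the tissues. In the joint fit, the log2 difference BTS minus CTS was larger in brain than in muscle by 2.06 (SE 0.47, adjusted p = 0.000367), beside 25% of all features called. CAT had a difference of 0.84 (SE 0.40, adjusted p = 0.12), and with the animal as a replicate block it was 1.03 with an adjusted p of 0.042, the range over the alternatives run being 0.0276, without the heated CTS animal 7, to 0.346. The other 3 members had adjusted p of 0.248 or more. This comparison was added after the values were seen.

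F1 hybrids were set against the mean of their parents and against each parent. BTS minus CTS, F1 minus CTS and F1 minus BTS share libraries, so their values are given side by side and are not independent. In brain, F1 against the mean of both parents gave 0 of 5 members (0 at an unadjusted p under 0.05, 0 by DESeq2), beside 2.86% of features. Against CTS, sod1 was higher in F1 by 0.43 (SE 0.15, adjusted p = 0.0484), the only call of the 5, beside 16.7% of features. It was lost with no filter, with no sex term, in controls alone, in heated animals alone, and on leaving out any 1 of control CTS animals 57 and 63 and heated CTS animals 4, 13 and 76, over adjusted p of 0.00768 to 0.612. Against BTS the test called 0 of 5, beside 15.8% of features, although prdx4.S at -0.42 (SE 0.17, unadjusted p = 0.0163, adjusted p = 0.0835) was called by DESeq2, and by edgeR without the heated BTS animal 78 (adjusted p = 0.0486). F1 brains had a median of 64.7 CPM of prdx4.S, between 33 and 121, where the CTS median was 53.9 and the BTS median 89.6.

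In muscle, the log2 level of PRDX5 was higher in F1 than the mean of the parents by 0.46 (SE 0.12, adjusted p = 0.00809), a fold of 1.37 (95% interval 1.16 to 1.62). It was the only call of 5, beside 12.3% of features. F1 muscles had 197 ± 45.7 CPM (SD, n = 24), against 133 ± 38.8 in CTS (SD, n = 10) and 152 ± 42.6 in BTS (SD, n = 11). Of the 24 F1 libraries 15 lay above the highest CTS library and 2 above the highest BTS library. The difference was 0.32 with an adjusted p of 0.488 in controls alone, and the call held in the other alternatives run, down to an adjusted p of 0.000819. Those alternatives did not leave out each F1 animal in turn. sod1 came close with 0.44 (SE 0.16, adjusted p = 0.0595) and was called by DESeq2 (adjusted p = 0.0243), over a range of 0.0123 to 0.987. It was also called by edgeR on leaving out any 1 of control BTS animals 68 and 71, heated BTS animal 75, and control CTS animals 77 and 83, with a lowest adjusted p of 0.0278.

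Set against each parent, the muscle members of F1 split into groups. Against CTS, 3 of 5 were higher, beside 33.4% of features: sod1 by 0.98 (SE 0.21, adjusted p = 0.000301), PRDX5 by 0.56 (SE 0.15, adjusted p = 0.00395) and prdx4.S by 0.56 (SE 0.17, adjusted p = 0.0108). Without muscle libraries 63, 68, 25 and 66 the prdx4.S call was lost (0.42, adjusted p = 0.0909). Against BTS, 2 of 5 were higher, beside 23.4% of features: SOD3 by 1.39 (SE 0.36, adjusted p = 0.00352) and CAT by 0.61 (SE 0.17, adjusted p = 0.00682). F1 minus BTS was -0.11 (SE 0.19) for sod1 and -0.04 (SE 0.16) for prdx4.S, with 95% intervals of -0.49 to 0.27 and -0.36 to 0.28. For PRDX5 it was 0.36 (SE 0.15, adjusted p = 0.0673). PRDX5 was called against BTS by DESeq2 (adjusted p = 0.0126), with RLE scaling (0.0278) and with the strict filter (0.0440). It was also called without muscle libraries 63, 68, 25 and 66 (0.44, adjusted p = 0.0332), and without BTS control 68, BTS heated 53 or BTS heated 75 (lowest adjusted p 0.0355). F1 minus CTS was -0.37 (SE 0.33) for SOD3 and -0.28 (SE 0.17) for CAT, with intervals of -1.04 to 0.30 and -0.62 to 0.06. So sod1 and prdx4.S were called against CTS, the lower parent, and SOD3 and CAT against BTS, the lower parent for them. In control animals alone 0 of 5 members were called against either parent in muscle, and in heated animals alone 3 were called against CTS and 1 against BTS. Whether these F1 differences depend on treatment was covered by the test of heat by genotype, which called none of the members.

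**Figure D3:**
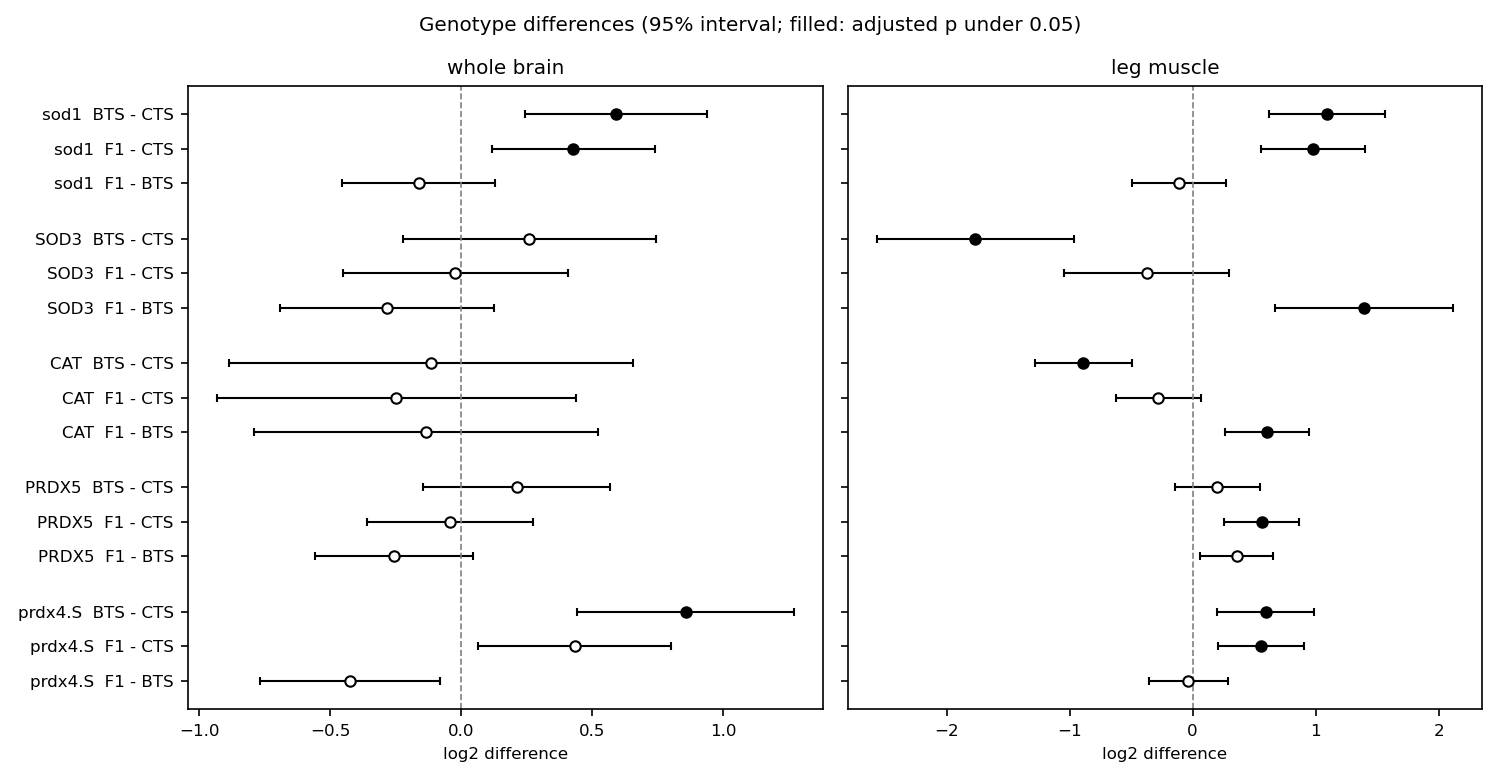
Genotype differences (log2, with 95% intervals) of the 5 scavenging enzymes, control and heated animals together, in brain (left) and leg muscle (right), on separate horizontal scales, with filled symbols for an adjusted p under 0.05. sod1 and prdx4.S lie above 0 for BTS minus CTS in both tissues, and SOD3 and CAT lie at -1.77 and -0.89 in muscle, the only filled symbols below 0.

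In brain PRDX5 in F1 was at -0.15 (SE 0.13) relative to the parental mean, and the difference between the tissues was -0.59 (SE 0.16, adjusted p = 0.0274 by edgeR), beside 1.98% of features called. With the animal as a replicate block over 42 animals it was -0.49 with an adjusted p of 0.158, which is the highest over the alternatives run, the lowest being 0.00552. This contrast too was added after the values were seen.

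The 8 backcross libraries are given as single values, under their genotype tags, which differ from their titles. Muscle SOD3 was 1.82 CPM in the control BTSbc animal 26, 5.73 and 1.21 in the heated BTSbc animals 12 and 30, and 1.56 in the heated CTSbc animal 84. Muscle CAT was 127, 95.8, 90.1 and 133 CPM in the same order, and muscle sod1 62.6, 52.6, 66.5 and 39.6. The CAT values of the 3 BTSbc muscles lay in or above the upper end of the BTS range, which ended at 92 CPM. Brain prdx4.S was 107, 69.4, 83 and 53.4 CPM in the same order, the CTSbc library being the lowest.

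Between the tissues, levels were set side by side in control animals. Of all features 87.3% were called between brain and muscle, and the median feature was higher in brain by 1.37 on the log2 scale under TMM scaling. Relative to that median the difference was 0.29 for SOD3, -0.22 for prdx4.S, -1.42 for PRDX5, -1.74 for sod1 and -2.99 for CAT. Unshifted, the log2 difference was 1.65 (SE 0.25, adjusted p = 6e-09) for SOD3, 1.15 (SE 0.14, adjusted p = 1.98e-12) for prdx4.S, -0.05 (SE 0.12, adjusted p = 0.676) for PRDX5, -0.37 (SE 0.14, adjusted p = 0.0121) for sod1 and -1.62 (SE 0.22, adjusted p = 1.69e-10) for CAT. The signs for sod1 and PRDX5 turn with the scaling: with no scaling factors they were 0.63 and 0.95. The sod1 call was also lost without control BTS animal 68 or control CTS animal 77 (highest adjusted p = 0.0586). Without the filter on low counts prdx4.S was at -0.015 in place of 1.15 and SOD3 at 0.49 (adjusted p = 0.0704), both calls being lost, while PRDX5 was called lower at -1.21. With the strict filter prdx4.S was at 0.18 (adjusted p = 0.23) and PRDX5 was called lower at -1.02.

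Levels of controls per library total were as follows. Control brains had 11.7 ± 5.27 CPM of SOD3 in CTS (SD, n = 5), 18 ± 5.05 in BTS (SD, n = 5) and 16.2 ± 5.37 in F1 (SD, n = 13), and control muscles 4.49 ± 2.52, 0.972 ± 0.619 and 3.29 ± 1.92. CAT per library total was 63.4 ± 27 CPM in CTS brain and 132 ± 40 in CTS muscle (SD, n = 5 each), yet 72.3 ± 15.1 and 67.9 ± 20.6 in BTS (SD, n = 5 each). In BTS the brain and muscle levels lay within their spread of each other. The difference between genotypes in the tissue contrast of CAT did not pass the test (adjusted p = 0.12, and 0.346 with no scaling factors).

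Animals that were high in a member in brain were compared with the same animals in muscle, over 40 animals with both tissues, as deviations from group means. SOD3 gave Pearson's r = 0.42 (permutation p = 0.00903, adjusted over the 5 members 0.0451) and Spearman's rho = 0.39 (permutation p = 0.0126, adjusted 0.0629). Without the 2 animals farthest from the median in brain r was 0.30, and without animals 63, 68, 25, 66 and 7 it was 0.37 with an adjusted p of 0.167. The adjusted p thus no longer passed without those 5 animals, with r little smaller. sod1 (r = 0.26), PRDX5 (r = 0.27), prdx4.S (r = 0.23) and CAT (r = 0.14) had adjusted permutation p of 0.18 or more, with rho of 0.23, 0.24, 0.23 and 0.05 in the same order.

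Within a tissue, sod1 and prdx4.S went together from library to library. Over 45 muscle libraries Spearman's rho of their deviations from the group means was 0.85, and prdx4.S stood 74th of 6262 features with a mean of at least 5 CPM in likeness to sod1. In 43 brain libraries the same rho was 0.75, and rho was 0.77 for sod1 with PRDX5 and 0.82 for PRDX5 with prdx4.S. In brain 96.6% of 11444 features lay below prdx4.S in likeness to sod1, so 385 places stood at or above it. SOD3 had rho between -0.04 and 0.10 to the 4 other members in brain and between -0.33 and 0.32 in muscle. In likeness to SOD3 in muscle, CAT (rho 0.32) stood 255th of 6263 features and prdx4.S (rho -0.33) stood 6114th. SOD3 had a median of 30 reads in muscle, and the part of counting noise in its rho values was not tested. The points share libraries, depth and scaling, and these are descriptions.

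**Figure D4:**
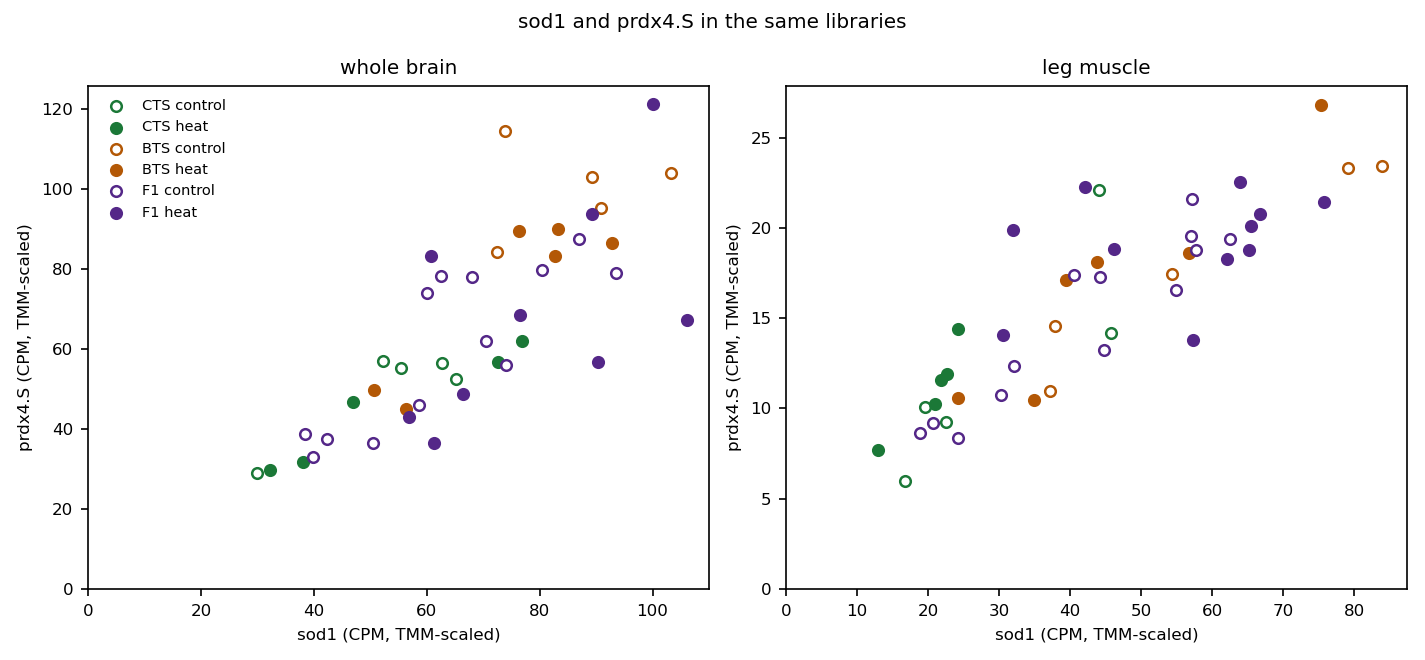
sod1 (horizontal) against prdx4.S (vertical), both in CPM, TMM-scaled, in the same library, for brain (left) and leg muscle (right), coloured by genotype, open for control and filled for heated animals. In both tissues the libraries form a single rising band, with CTS libraries at its lower end in muscle, where all but 2 of the 10 have under 25 CPM of sod1.

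The features most like each member, by Spearman's rho of those deviations, were as follows. In brain, sod1 was most like CALM3 (rho 0.90), RAB1A (0.89) and psmb7.S (0.88), prdx4.S was most like RPN2 (0.91), FADS1 (0.91) and ILF2 (0.89), and PRDX5 was most like emc10 (0.91), bzw1 (0.90) and ndufs7 (0.90). RPN2 is a subunit of the endoplasmic reticulum's glycosylation complex and ndufs7 a subunit of respiratory complex I. In muscle the top features were a feature called hypothetical (AMEXTC_0340000221058, 0.94), YIPF4 (0.92) and psmb6.L (0.92) for sod1, and Rpl11 (0.92), a feature called 60S (0.91) and RPL26L1 (0.91) for prdx4.S. The psmb names are those of proteasome subunits and the RPL names those of ribosomal proteins. PRDX5 in muscle was most like orc4 (0.82), ISCU (0.80), an iron-sulfur cluster scaffold, and eci1 (0.78), an enzyme of fatty acid oxidation. SOD3 had weaker best matches: LOC102360064 (0.69), KLF3 (0.68) and LOC102943240 (0.67) in brain, and LOC108803380 (0.58), a feature called transcription (0.56) and ABI3BP (0.52) in muscle.

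CAT in brain was the most uneven member, with 13.3 CPM in its lowest library and 256 in its highest, a 19.2-fold span, where brain sod1 spanned 3.55-fold and PRDX5 3.69-fold. Its highest libraries were the heated CTS animal 7 (256 CPM), the control F1 animal 19 (192), the heated F1 animal 6 (183), the heated F1 animal 86 (123) and the control CTS animal 77 (117), so they fell in both treatments. The 3 features most like it in brain were PDLIM1 (rho 0.87), a feature named annexin (0.86) and OSR1 (0.85), and in muscle anxa1 (0.76), dhrs4 (0.70) and EIF3F (0.70). Of the marker sums, that of epidermis followed brain CAT with a rho of 0.73 over 43 libraries and that of fibroblasts with 0.65. The 7 brain libraries with the most CAT had epidermis sums between 416 and 764 CPM, and the 7 with the least had 236 to 329. That gap depends on the cut at 7. The library next above the lowest 7, of control F1 animal 25 with 34.8 CPM of CAT, had an epidermis sum of 442 CPM. In muscle the epidermis rho of CAT was -0.08. The feature catalase spanned only 2.53-fold in brain, between 52.2 and 132 CPM.

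**Figure D5:**
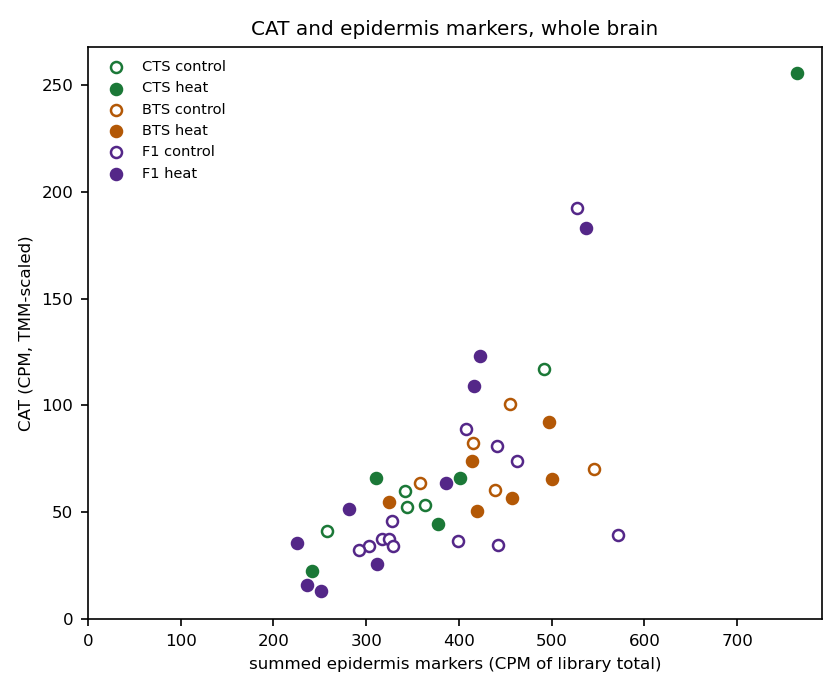
CAT (CPM, TMM-scaled, vertical) against the summed epidermis markers (CPM of the library total, horizontal) in 43 brain libraries, coloured by genotype, open for control and filled for heated animals. The 3 libraries above 150 CPM of CAT, animals 7, 19 and 6, all had more than 500 CPM of epidermis markers, while 1 F1 control with 571 CPM of markers had 39.5 CPM of CAT.

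The surrounding pathway was read from 6 lists with 73 symbols, of which 57 features matched by name. None of the 47 tested in brain or the 43 tested in muscle was called in a heat comparison by edgeR, in any genotype or in their mean. For the mean of the genotypes the list median was -0.05 in brain and -0.13 in muscle on the log2 scale, beside -0.01 for all features in each tissue. Between BTS and CTS 12 were higher and 6 lower in brain, with a list median of 0.14 beside -0.01 for all features. In muscle 17 were higher and 5 lower, with a list median of 0.35 beside -0.02. The shares called, 18 of 47 and 22 of 43, stand beside the 35.2% and 46.6% of all features given above.

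Among the dismutation partners, 4 of which were tested, none was called between the parents in brain. In muscle SOD2, the mitochondrial dismutase, was higher in BTS by 0.80 (adjusted p = 0.00207) and CCS, the chaperone that loads copper into SOD1, by 0.64 (adjusted p = 0.00667), while SLC31A1, the copper importer, was lower by a log2 difference of -0.42 (adjusted p = 0.0325). Control muscles had 175 ± 27.8 CPM of SOD2 in CTS (SD, n = 5) and 299.6 ± 113 in BTS (SD, n = 5). SOD2 was also above the parental mean in F1 muscle, by 0.59 (adjusted p = 0.00586).

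Among peroxiredoxins and thioredoxins, brain had 3 higher and 1 lower of 11 tested between BTS and CTS. txnrd1.L, a thioredoxin reductase, had 2.03 ± 0.58 CPM in control CTS (SD, n = 5) and 7.71 ± 0.82 in control BTS (SD, n = 5). Its difference of 1.76 (adjusted p = 3.03e-09 by edgeR) was followed by txn2.L, the mitochondrial thioredoxin, at 0.67 (adjusted p = 0.000638) and the sestrin SESN2 at 0.38 (adjusted p = 0.00791), with txnrd3 lower at -0.64 (adjusted p = 2.56e-06). In muscle 6 of 10 were higher and 1 lower: SESN1 at 2.50 (adjusted p = 1.57e-06), txn2.L at 1.02 (adjusted p = 2.66e-06), txnip, an inhibitor of thioredoxin, at 0.88 (adjusted p = 8.14e-05) and SESN2 at -0.55 (adjusted p = 0.00123) had the smallest p. PRDX3, the mitochondrial peroxiredoxin, was above the parental mean in F1 muscle by 0.61 (adjusted p = 0.0123), as PRDX5 was.

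Of the glutathione peroxidases and their reductase only 2 features could be tested. gsr, glutathione reductase, was higher in BTS brain by 1.23 (adjusted p = 0.0162). Sources of superoxide and peroxide gave 2 higher and 2 lower of 11 in brain. The peroxisomal oxidases ACOX2 and ACOX3, which make hydrogen peroxide, were higher in BTS by 1.12 (adjusted p = 2.22e-10) and 1.23 (adjusted p = 4.73e-07), and NCF1, a subunit of the phagocyte oxidase, was lower, at -1.50 (adjusted p = 2.89e-05). In muscle ACOX2 was higher in BTS at 0.77 (adjusted p = 0.0134). F1 muscle was above the parental mean for 4 of these 10 sources, ACOX2, cybb.L, MAOA and XDH.

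Genes of peroxisome import, through which catalase enters the organelle, split in direction: 5 of 11 were higher and 3 lower in BTS brain, and 2 of 10 were higher and 2 lower in BTS muscle. PEX5, the receptor that carries catalase into peroxisomes, was lower in BTS in both tissues, at -0.32 in brain (adjusted p = 0.00732) and -0.59 in muscle (adjusted p = 0.000174). PEX13, a part of the import pore, was higher in both, at 0.64 (adjusted p = 3.67e-06) and 0.89 (adjusted p = 2.5e-06). Of the regulators, NFE2L2, the transcription factor NRF2 that drives many antioxidant genes, was higher in BTS at 0.32 in brain (adjusted p = 0.00163), as 1 of 8 tested, and at 0.44 in muscle (adjusted p = 0.0435). In muscle KEAP1, which marks NRF2 for breakdown, was higher as well, at 0.48 (adjusted p = 0.0147), within 5 of 7 regulators called, all higher.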

How the data were processed

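RNA of whole brain and leg muscle was sequenced from polyA-selected, stranded libraries with single-end reads of 100 bp, per the labels' protocols. The authors deposited whole-number read counts per feature and library in 1 table per tissue. Trimmomatic, FastQC, STAR and HTSeq are named in the submitters' processing notes, with neither versions nor a genome build, which are therefore not given here. Groups follow the genotype and treatment labels. Animal 76 carries different genotypes in its title and tag, and animal 64 is labelled control in brain and heated in muscle, so fits were repeated without each. Title and tag also differ for the backcross animals. The titles give BTS for animals 12 and 26 and F1 for animals 30 and 84, and their tags were used. The brain of F1 animal 17 was not analysed here.

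Counts were scaled by TMM, filtered with filterByExpr and fitted with edgeR 4.0.16 (R 4.3.3), with terms for group and sex. That left 15496 features in brain, 12554 in muscle and 16288 in a joint fit of both tissues. Calls are at an adjusted p under 0.05, over all features. DESeq2 1.42.0, other scalings and filters, single treatments, and leaving out libraries were alternatives. Animals were left out in turn for CTS and BTS only, so these fits do not show how far a result rests on single F1 animals. Levels are CPM, and log2 CPM for correlations used a prior count of 2. Correlations between tissues used 100000 permutations. The fitting was tested on simulated data.

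The members and lists were chosen with earlier results of these data known. Genes outside the set were named by a rule: up to 4 per list and tissue by smallest p, and the 3 features most like each member. Some features that the rule names are not reported here. Same-numbered brain and muscle libraries with the same genotype and treatment tags were taken to come from the same animal. Their deviations from the group means correlated by 0.17 on average over 40 pairs (25 of them over 0.1, lowest -0.11). The joint fit was therefore repeated with the animal as a block. Every pair of libraries of a group differed by more than sampling noise, with a chi-square of at least 8.33 per degree of freedom. P-values measure the spread between these animals.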

Additional observations from a re-analysis of the deposited data

Results flagged for a closer look

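Of 45 groups of 4 to 10 libraries examined, 5 held a library far from the rest of its group by Dixon's test, and chance flags about 1 in 20 groups. All 5 are brain libraries. In the heated CTS brain of animal 7, CAT was at 256 CPM, where the next library of its group had 66.2, and SOD3 was at 44.5 CPM, where the next had 14.8. In control CTS brain, CAT was at 117 CPM in animal 77, the next being 59.8, and prdx4.S was at 29 CPM in animal 57, below the next lowest of 52.5. In control BTS brain, PRDX5 was at 522 CPM in animal 69, the next being 405.

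The difference between BTS and CTS was not the same in both tissues for SOD3, by 2.06 on the log2 scale in the test of that difference. F1 minus the parental mean, compared between brain and muscle, passed the test for PRDX5 at -0.59 (adjusted p = 0.0274 by edgeR), but not with the animal as a replicate block (-0.49, adjusted p = 0.158).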

How the results depend on the processing

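Of 3490 values of single members under an alternative, 3423 kept their call, 29 lost it and 31 gained one, and 7 changed sign with a call on at least 1 side. A further 132 changed sign with a call on neither side. Fits without animal 76 or brain library 7 are counted under 2 names each. No heat comparison gained a call of a member under any alternative run. Between brain and muscle controls, sod1 turned from -0.37 to 0.32 with DESeq2 and with RLE scaling and to 0.63 with no scaling factors, PRDX5 from -0.05 to 0.62 with DESeq2, 0.61 with RLE scaling and 0.95 with no scaling factors, and prdx4.S from 1.15 to -0.015 with no filter. There SOD3 lost its call with no filter (0.49), and PRDX5 gained one, lower, with no filter (-1.21) and the strict filter (-1.02). Having no scaling factors, the contrasts of F1 with single parents, the tissue contrasts of genotype and the sum of CAT and catalase were chosen after seeing the data.

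The number of members called moved as follows. BTS minus CTS in brain went from 2 to 1 in controls only and 0 in heated animals only, and gained SOD3 without brain library 7. BTS minus CTS in muscle lost prdx4.S from its 4 in controls only and in heated animals only. The same call was lost without muscle libraries 63, 68, 25 and 66. F1 minus CTS in brain went from 1 to 2 with DESeq2, and to 0 with no filter, no sex term, controls only, heated animals only and without animal 76. F1 minus BTS in brain went from 0 to 1 with DESeq2, RLE scaling and no scaling factors. F1 minus the parental mean in muscle went from 1 to 2 with DESeq2, RLE scaling, the strict filter, heated animals only and without the shallow library 11, to 4 with no scaling factors and to 0 in controls only. In muscle F1 minus CTS went from 3 to 0 in controls only, and lost prdx4.S without muscle libraries 63, 68, 25 and 66. F1 minus BTS in muscle went from 2 to 0 in controls only and 1 in heated animals only. It gained PRDX5 with DESeq2, RLE scaling, the strict filter and without those muscle libraries. Between brain and muscle controls, PRDX5 gained a call with DESeq2, RLE scaling and no scaling factors, beside the changes given above. With the animal as a replicate block, BTS minus CTS between tissues went from 1 to 2 and F1 minus the parental mean between tissues from 1 to 0; it changed no other count of members. The correlation of SOD3 between tissues went to 0.37 without animals 63, 68, 25, 66 and 7. The causes were not tested. Leaving out single CTS or BTS animals, with no F1 animal left out in turn, gave 0 to 1 members for F1 minus CTS in brain. It gave 0 to 1 for F1 minus BTS in brain and 1 to 2 for F1 minus the parental mean in muscle. For BTS minus CTS between tissues it gave 1 to 2. It also gave 2 to 3 for BTS minus CTS in brain, 2 to 3 for F1 minus BTS in muscle and 3 to 4 for brain minus muscle in controls.

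Over all features, calls for heat ranged over the alternatives from 10 to 34 in brain (main 15) and 19 to 175 in muscle (main 95). For BTS minus CTS they ranged from 2956 to 6058 in brain (main 5447) and 3619 to 6855 in muscle (main 5844), and for F1 minus the parental mean from 119 to 573 (main 443) and 132 to 2027 (main 1550). With no scaling factors the share of called features that were higher went from 66.8% to 93.3% for F1 minus the parental mean in muscle. Few reads limit SOD3 in muscle, with a median of 30.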
